A study of Mus musculus with 9 samples.

Results

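The immunoglobulin light chain genes measured here are Igkc, the kappa constant region, Iglc1, Iglc2 and Iglc3, the lambda constant regions, and Iglv1, Iglv2 and Iglv3, the lambda variable (V) segments. They were chosen by gene name, and all 7 were found among the 55536 rows of the deposited count table. The table holds 9 RNA-seq libraries of B cells from mouse spleen labelled pre-GC (before the germinal centre), 5 from p52 knock-in animals, titled p52ki/ki and labelled p52Ki, and 4 from wild-type animals (WT). p52 is the NF-kB subunit made from the Nfkb2 gene. The labels name neither the change to the p52 allele nor the strain, age and sex of the mice, the markers used to isolate the cells or any immunisation. Separate mice are not named for the libraries of a group, so the p-values measure the spread between these libraries, which may be technical.

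A B cell receptor pairs heavy chains with kappa or lambda light chains, and most mouse B cells make kappa. A light chain mRNA joins one rearranged V segment and one J segment by splicing to a constant region, so its V, J and constant reads come from the same molecule. Mouse lambda genes lie in a pair of clusters: Iglv1 joins mainly to Iglc1 or Iglc3, and Iglv2 and Iglv3 join mainly to Iglc2. Lambda1, the product of Iglv1 and Iglc1, is the most abundant lambda chain of laboratory mice and dominates the early antibody response to the hapten NP in mice with the Igh-b heavy chain haplotype. NF-kB takes its name from a protein that binds the kappa intronic enhancer.

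On GRCm38, Igkc (ENSMUSG00000076609) lies on the plus strand at chr6:70726435-70726966, a single exon that falls within an intron of Gm30211. The lambda genes lie on the minus strand of chromosome 16. In transcription order, Iglv2 (ENSMUSG00000076940) is at chr16:19260401-19260859, Iglv3 (ENSMUSG00000076939) at chr16:19241207-19241690 and Iglc2 (ENSMUSG00000076937) at chr16:19198396-19200351. They are followed by Iglv1 (ENSMUSG00000076934) at chr16:19085017-19085500, Iglc3 (ENSMUSG00000105547) at chr16:19065230-19065681 and Iglc1 (ENSMUSG00000105906) at chr16:19061618-19062071. The annotation classes them as constant-region genes and V segments, and their counts are exonic. Iglj2 lies wholly within an annotated exon of Iglc2 on the same strand and had 0 counts in all 9 libraries.

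The first 120 coding bases of the constant regions are shown because they set how far reads can tell the genes apart. Capitals in Iglc1 mark bases that differ from both Iglc2 and Iglc3, and capitals in Iglc2 and Iglc3 mark bases at which that pair differs.
Igkc: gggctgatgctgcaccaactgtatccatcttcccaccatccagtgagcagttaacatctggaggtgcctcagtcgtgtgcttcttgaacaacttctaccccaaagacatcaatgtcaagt
Iglc1: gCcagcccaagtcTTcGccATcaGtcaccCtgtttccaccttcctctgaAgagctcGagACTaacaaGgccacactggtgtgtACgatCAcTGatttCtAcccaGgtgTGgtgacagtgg
Iglc2: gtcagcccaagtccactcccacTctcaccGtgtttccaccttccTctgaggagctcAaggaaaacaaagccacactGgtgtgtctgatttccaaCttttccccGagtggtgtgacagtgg
Iglc3: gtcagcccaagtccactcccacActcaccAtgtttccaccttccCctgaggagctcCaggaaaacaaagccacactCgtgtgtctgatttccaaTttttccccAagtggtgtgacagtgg
These windows are chr6:70726435-70726554 on the plus strand for Igkc and, on the minus strand, chr16:19061952-19062071 for Iglc1, chr16:19198733-19198852 for Iglc2 and chr16:19065562-19065681 for Iglc3. Within them Iglc1 carries 25 bases found in neither other lambda gene, and Iglc2 and Iglc3 differ at 7. Over the whole coding alignment Iglc2 and Iglc3 are identical at 303 of 314 positions (96.5%), with a longest shared run of 79 bases. Iglc1 matches Iglc2 at 73.6% and Iglc3 at 74.2% of 318 positions, with no shared run over 19 bases.

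Among the V segments the near-identical pair is Iglv1 and Iglv2, so the V rows group the lambda genes differently from the constant rows. The windows are the first 120 bases of the V exon. Capitals mark the differences between Iglv1 and Iglv2 and, in Iglv3, the bases that differ from both.
Iglv1: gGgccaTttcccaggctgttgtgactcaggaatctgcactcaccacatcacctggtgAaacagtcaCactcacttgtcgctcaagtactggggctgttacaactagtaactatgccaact
Iglv2: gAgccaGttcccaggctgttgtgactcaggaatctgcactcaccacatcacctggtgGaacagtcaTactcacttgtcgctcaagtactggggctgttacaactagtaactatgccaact
Iglv3: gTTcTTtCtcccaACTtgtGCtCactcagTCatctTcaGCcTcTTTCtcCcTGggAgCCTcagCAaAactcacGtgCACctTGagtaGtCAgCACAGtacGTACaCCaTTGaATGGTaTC
On the minus strand these windows are chr16:19085202-19085321 for Iglv1, chr16:19260586-19260705 for Iglv2 and chr16:19241411-19241530 for Iglv3. Iglv1 and Iglv2 match at 296 of 305 positions of the V exon (97.0%), whereas Iglv3 matches Iglv1 at 53.6% and Iglv2 at 52.4%. The libraries were read for 151 cycles from each end, longer than the 79 and 104 bases that are the longest shared runs of the Iglc2 and Iglc3 pair and the Iglv1 and Iglv2 pair. How the authors' counting handled reads matching more than one gene is not given in the sources used here, so the split within each pair is uncertain.

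Total counts ran from 4492160 to 6647650 per p52Ki library and from 7368604 to 7937579 per WT library. Genes with at least 1 count numbered 15504 to 16634 in p52Ki libraries and 14033 to 14793 in WT libraries. Nfkb2, whose row cannot show a changed allele, averaged 208 ± 40.9 CPM (counts scaled to a common library total) in p52Ki libraries and 136 ± 34.0 CPM in WT libraries (SD, n = 5 and 4; log2 fold change 0.61, adjusted p = 0.0987, edgeR quasi-likelihood test with Benjamini-Hochberg adjustment). Immunoglobulin rows took 3.49% to 4.50% of counts in p52Ki libraries and 2.26% to 2.81% in WT libraries. As a check of the label, levels of B cell markers were read, of which 5 are given by name. Ms4a1, which encodes CD20, averaged 2901 ± 443 CPM in p52Ki libraries and 2523 ± 108 CPM in WT libraries. Cd79b, a signalling chain of the B cell receptor, averaged 2882 ± 357 CPM in p52Ki and 2271 ± 237 CPM in WT, and Pax5, a B lineage factor, averaged 270 ± 36.9 CPM in p52Ki and 209 ± 18.4 CPM in WT (SD, n = 5 and 4). Between the groups, edgeR's adjusted p was 0.385 for Ms4a1, 0.115 for Cd79b and 0.15 for Pax5. Ebf1, another B lineage factor, averaged 463 ± 220 CPM in p52Ki and 232 ± 20.9 CPM in WT (adjusted p = 0.055 by edgeR). Cd79a, the other signalling chain, rose in p52Ki (log2 fold change 0.85, adjusted p = 0.00906 by edgeR).

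The p52Ki libraries held more kappa and more Iglc2 and Iglc3 transcript than the WT libraries, while the most abundant lambda genes of WT, Iglc1 and Iglv1, did not pass the test. Of the 7 genes, 3 rose in p52Ki (Igkc, Iglc2 and Iglc3), and none fell in edgeR's quasi-likelihood test. Among all 12849 genes tested, 4.49% rose, 4.04% fell and 8.53% changed in either direction. At an unadjusted p under 0.05, 4 of the 7 were higher and 2 lower in p52Ki, and DESeq2 called 4 higher and 2 lower. Over the same 12849 genes, DESeq2 called 995 higher and 771 lower. Those totals, and not edgeR's shares, are the background for DESeq2 counts here and for the sets below. No share of all genes was taken at the unadjusted threshold, so unadjusted counts, here and for the sets below, have no background. The 3 genes that rose were also the ones whose p52Ki libraries all lay above all WT libraries, a separation seen in 7.3% of all genes tested. Over all genes tested, 6.53% lay wholly below WT and 13.8% were separated in either direction. The median log2 fold change of the 7 was 0.70, against 0.03 over all genes tested. In these bulk libraries, fewer cells of a type and less RNA per cell cannot be told apart.

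Igkc encodes the constant region that every kappa chain shares. Its level in the 5 p52Ki libraries was 7604, 7951, 5634, 5853 and 6681 CPM, against 1828, 2158, 2659 and 2561 CPM in the 4 WT libraries. The lowest p52Ki library lay above the highest WT library by more than either group's spread. The difference was 2.93-fold (log2 fold change 1.55 ± 0.15, SE; adjusted p = 0.00072 over all genes tested, edgeR's quasi-likelihood test).

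Iglc1 encodes the constant region of lambda1. Its level was 2400, 2815, 1763, 1706 and 1762 CPM in p52Ki libraries, against 2356, 2648, 3850 and 4201 CPM in WT libraries. The groups overlapped: WT replicates 1 and 2 lay within the p52Ki range. The log2 fold change was -0.64 ± 0.20 (SE), with adjusted p = 0.0783 in edgeR's quasi-likelihood test. Leaving out p52Ki replicate 2, the highest p52Ki library, gave -0.78 with adjusted p = 0.0455 by edgeR. Iglc1 did not pass when any other single library was left out (adjusted p up to 0.228 by edgeR).

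Iglc2 and Iglc3 encode the constant regions of lambda2 and lambda3. Iglc2 stood at 1148, 1369, 1014, 704 and 1355 CPM in p52Ki libraries, against 352, 499, 501 and 533 CPM in WT libraries. Iglc3 stood at 732, 826, 657, 515 and 1035 CPM in p52Ki libraries, against 324, 499, 288 and 315 CPM in WT libraries. Neither gene's groups overlapped, although p52Ki replicate 4 was the lowest of its group for both, and for Iglc3 it lay close to WT replicate 2. Iglc2 rose 2.37-fold (log2 fold change 1.25 ± 0.20, SE; adjusted p = 0.00487 by edgeR). Iglc3 rose 2.11-fold (log2 fold change 1.08 ± 0.22, SE; adjusted p = 0.0135 by edgeR). With the near-identical pair summed, the log2 fold change was 1.18. An antisense gene, 2010309G21Rik, shares 93 exonic bases with Iglc3 on the opposite strand, and the SMART-Seq v2 libraries do not mark strand, so reads from the shared bases cannot be assigned. That row, singled out after its values were seen, averaged 732 ± 172 CPM in p52Ki libraries and 380 ± 105 CPM in WT libraries (SD, n = 5 and 4; log2 fold change 0.94, adjusted p = 0.0194 by edgeR, up to 0.0557 when WT replicate 1, 3 or 4 was left out). The span of 2010309G21Rik also overlaps Iglc1, Iglv1, Iglj1, Iglj3 and Iglj3p, with 0 exonic bases shared. The part of its unspliced reads in those rows was not tested.

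The lambda V segments carry the antigen-binding part of the chain and are counted in rows of their own. Iglv1 stood at 2127, 2434, 1647, 1428 and 1669 CPM in p52Ki libraries, against 2065, 2394, 3182 and 3471 CPM in WT libraries. As for Iglc1, WT replicates 1 and 2 lay within the p52Ki range and WT replicates 3 and 4 above it. The log2 fold change of Iglv1 was -0.58 ± 0.19 (SE; adjusted p = 0.0858 by edgeR). With the near-identical Iglv1 and Iglv2 summed, it was -0.42 (adjusted p = 0.247 by edgeR). Iglv2 stood at 463, 787, 522, 356 and 380 CPM in p52Ki libraries, against 242, 289, 448 and 585 CPM in WT libraries, with the groups interleaved (log2 fold change 0.36 ± 0.29, SE; adjusted p = 0.537 by edgeR). Iglv3 stood at 215, 263, 176, 136 and 171 CPM in p52Ki libraries, against 81.5, 183, 119 and 89.5 CPM in WT libraries. WT replicate 2 alone reached into the p52Ki range of Iglv3, whose log2 fold change was 0.70 ± 0.26 (SE; adjusted p = 0.136 by edgeR). Without that library the log2 fold change was 0.99 with adjusted p = 0.0335 by edgeR. Iglv3 did not pass when any other single library was left out (adjusted p up to 0.282 by edgeR).

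**Figure D1:**
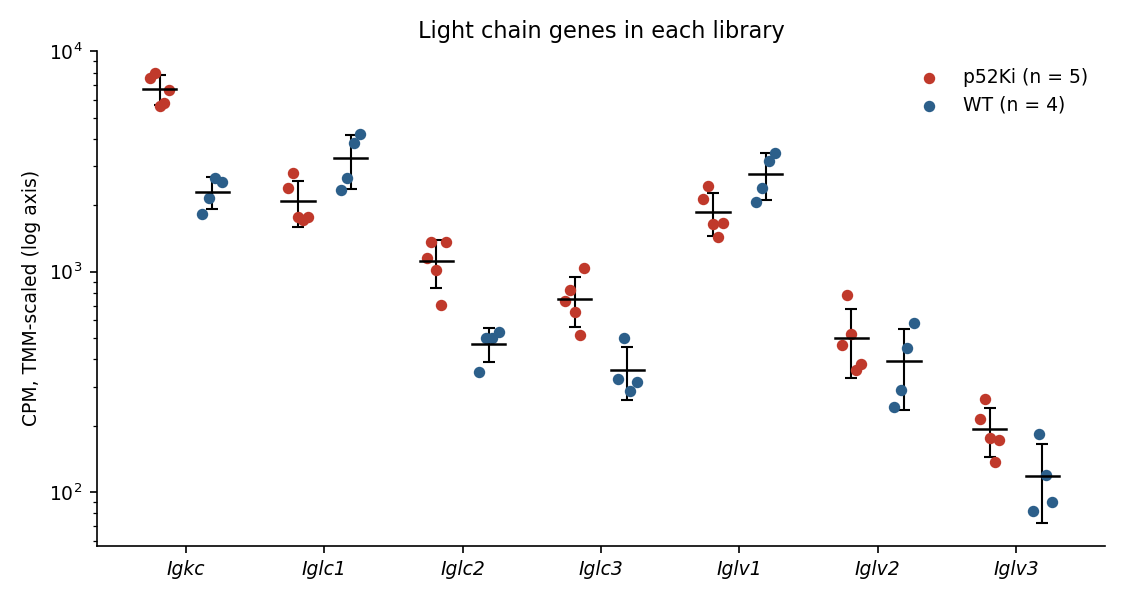
CPM of each of the 7 light chain genes (log axis), p52Ki libraries left of WT libraries, one point per library and a bar at the group mean. The p52Ki points of Igkc, Iglc2 and Iglc3 lie above every WT point, whereas those of Iglc1, Iglv1, Iglv2 and Iglv3 overlap the WT points.

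Levels of different genes were compared per kilobase of exon. In p52Ki libraries Igkc stood highest at 12680 ± 1932 CPM per kb, followed by Iglv1 (4760 ± 1046) and Iglc1 (4602 ± 1092), which did not differ beyond their spread (SD, n = 5). Iglc2 (1827 ± 449), Iglc3 (1666 ± 430) and Iglv2 (1370 ± 472) came next, also within their spread of each other, and Iglv3 was lowest at 504 ± 127 CPM per kb. In WT libraries the order began with Iglc1 (7189 ± 1980) and Iglv1 (7104 ± 1683), which again lay within their spread, with Igkc next at 4326 ± 720 CPM per kb (SD, n = 4). Iglv2 (1068 ± 428), Iglc3 (789 ± 213) and Iglc2 (770 ± 133) followed without differing beyond their spread, and Iglv3 was lowest at 310 ± 121 CPM per kb.

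Because both counts of a ratio come from the same library, the balance of kappa and lambda needs no scaling between libraries. Kappa outnumbered lambda in every p52Ki library and was outnumbered in every WT library. The ratio of Igkc counts to summed Iglc1, Iglc2 and Iglc3 counts was 1.78, 1.59, 1.64, 2.00 and 1.61 in p52Ki libraries, against 0.603, 0.592, 0.573 and 0.507 in WT libraries. The means were 1.72 ± 0.17 in p52Ki and 0.57 ± 0.04 in WT (SD, n = 5 and 4), a log2 difference of 1.597. The exact two-sided permutation test gave p = 0.00794, the smallest these group sizes allow, and 0.0111 after Benjamini-Hochberg adjustment over the 7 ratios and shares tested. The ratios rest on 30751 to 52374 Igkc counts and 19089 to 29476 lambda constant counts per p52Ki library, and on 13930 to 19295 Igkc counts and 23101 to 38038 lambda constant counts per WT library. Per exonic length, chosen after the data were seen, the ratio was 1.58 ± 0.15 in p52Ki and 0.50 ± 0.04 in WT.

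**Figure D2:**
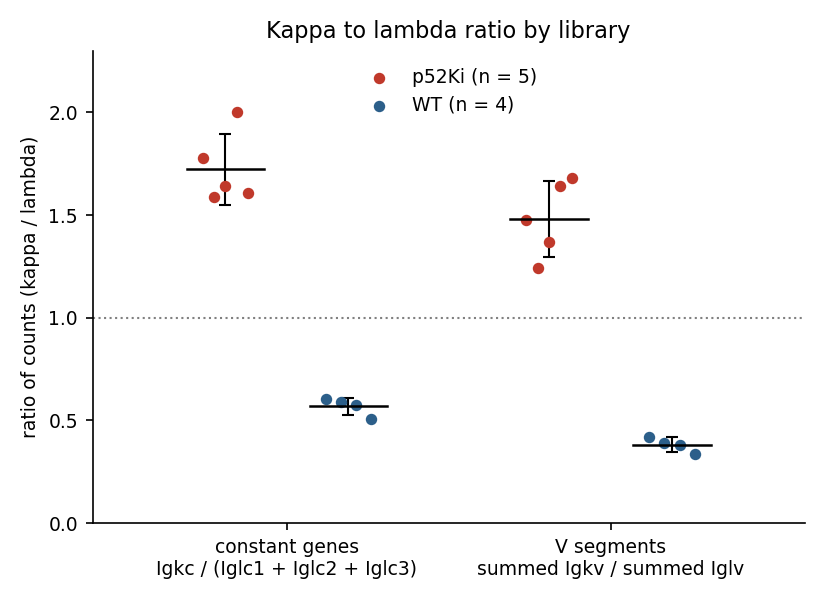
Ratio of kappa to lambda counts in each library (linear axis), from constant genes (Igkc over summed lambda constant counts) and from V segments (summed Igkv over summed Iglv). p52Ki is left of WT, with points for libraries and bars for group means. From constant genes the 5 p52Ki libraries lie between 1.59 and 2.00 and the 4 WT libraries between 0.507 and 0.603. From V segments they lie between 1.24 and 1.68 in p52Ki and between 0.338 and 0.422 in WT.

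The V rows gave the same direction from other exons. Lambda segments made up 40.4%, 44.6%, 42.2%, 37.9% and 37.3% of light chain V counts in p52Ki libraries, against 70.3%, 71.9%, 72.5% and 74.7% in WT libraries. The shares did not overlap and differed by -31.88 percentage points (exact two-sided permutation p = 0.00794, adjusted 0.0111). The kappa to lambda ratio read from V counts was 1.48 ± 0.18 in p52Ki libraries and 0.38 ± 0.03 in WT libraries (SD, n = 5 and 4). Among the 160 rows named Igkv, the kappa V segments, 92 had counts enough to be tested. Of these 34 rose and none fell in p52Ki by edgeR's quasi-likelihood test, where 4.49% of all genes tested rose and 4.04% fell. At an unadjusted p under 0.05 there were 59 higher and 0 lower. DESeq2 called 50 higher and 0 lower, where it called 995 higher and 771 lower among all 12849 genes. Their median log2 fold change was 1.63, close to the 1.55 of Igkc.

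The makeup of the light chain constant counts differed mainly in Igkc and Iglc1. Igkc took 63.2% ± 2.2 in p52Ki libraries and 36.2% ± 1.8 in WT libraries (SD, n = 5 and 4). Iglc1 took 19.4% ± 2.0 in p52Ki libraries and 50.5% ± 4.3 in WT libraries. Iglc2 held 10.4% ± 1.7 in p52Ki and 7.43% ± 0.80 in WT, and Iglc3 held 7.04% ± 1.497 in p52Ki and 5.84% ± 2.22 in WT. The 4 genes together took 1.10% ± 0.18 of all counts in p52Ki libraries and 0.615% ± 0.121 in WT libraries.

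**Figure D3:**
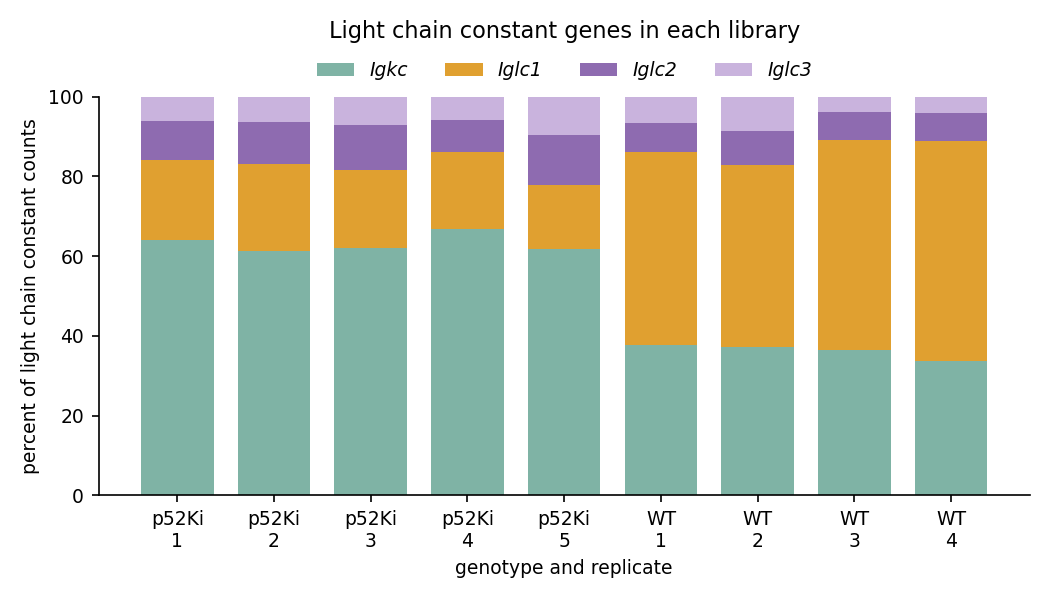
Percent of light chain constant counts taken by Igkc, Iglc1, Iglc2 and Iglc3 in each library, as stacked bars that sum to the whole, with p52Ki libraries left of WT libraries. Igkc is the largest part of each p52Ki bar and Iglc1 the largest part of each WT bar.

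Within lambda, the share of Iglc1 also differed. This share sets Iglc1 against both Iglc3, which lies in the same cluster, and Iglc2, which lies in the other. Iglc1 made up 56.1%, 56.2%, 51.3%, 58.3% and 42.4% of lambda constant counts in p52Ki libraries, against 77.7%, 72.6%, 83.0% and 83.2% in WT libraries. The groups did not overlap, with p52Ki replicate 5 the lowest, and the difference was -26.25 percentage points (exact two-sided permutation p = 0.00794, adjusted 0.0111). Against Iglc2 and Iglc3 alone, leaving the lambda1 gene out, the kappa to lambda log2 difference was 0.40 instead of 1.597 and did not pass (exact permutation test, adjusted p = 0.0833). Iglv3, the V segment whose sequence stands apart, made up 7.66%, 7.55%, 7.49%, 7.11% and 7.70% of lambda V counts in p52Ki libraries, against 3.41%, 6.39%, 3.17% and 2.16% in WT libraries. Its share was higher in all 5 p52Ki libraries than in any WT library, by 3.72 percentage points on average (exact two-sided permutation p = 0.00794, adjusted 0.0111). Iglv1 took 73.1% ± 2.8 of lambda V counts in p52Ki and 84.7% ± 1.3 in WT, and Iglv2 took 19.4% ± 2.9 in p52Ki and 11.6% ± 1.9 in WT (SD, n = 5 and 4).

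Lambda V counts were fewer per lambda constant count in p52Ki libraries. The ratio of summed Iglv to summed Iglc counts was 0.655, 0.695, 0.683, 0.657 and 0.535 in p52Ki libraries, against 0.788, 0.786, 0.808 and 0.821 in WT libraries. All p52Ki libraries lay below all WT libraries, with p52Ki replicate 5 apart from the rest, and the log2 difference was -0.32 (exact two-sided permutation p = 0.00794, adjusted 0.0111). The same ratio for kappa, summed Igkv over Igkc, was 0.551 ± 0.013 in p52Ki and 0.538 ± 0.015 in WT (SD, n = 5 and 4), a log2 difference of 0.03 that did not pass (exact two-sided permutation p = 0.230, adjusted 0.230). Among ratios chosen after the data were seen, that of Iglv1 to Iglc1 ran from 0.837 to 0.947 in p52Ki and from 0.826 to 0.904 in WT. The remaining genes were pooled because Iglc2 and Iglc3 are near-identical, although Iglc3 lies in the Iglv1 cluster. Their ratio of Iglv2 plus Iglv3 to Iglc2 plus Iglc3 was 0.360, 0.478, 0.418, 0.404 and 0.230 in p52Ki libraries, against 0.479, 0.473, 0.718 and 0.795 in WT libraries. That second ratio was highest in WT replicates 3 and 4, lowest in p52Ki replicate 5, and overlapped between the groups at p52Ki replicate 2.

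**Figure D4:**
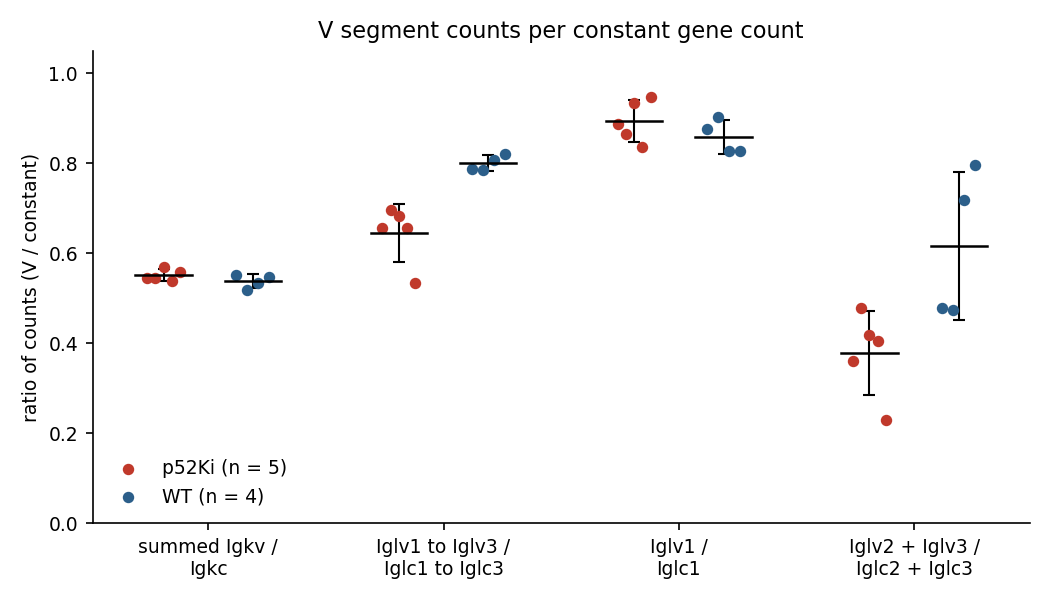
Ratio of V counts to constant counts in each library for kappa, for lambda, for Iglv1 over Iglc1, and for Iglv2 plus Iglv3 over Iglc2 plus Iglc3. p52Ki is left of WT, with points for libraries and bars for group means. The lambda ratios of p52Ki lie between 0.535 and 0.695, below the 0.786 to 0.821 of WT, while the kappa ratios of the groups overlap.

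The joining (J) segments and the remaining lambda rows are further rows of the same loci. They held few counts beside the constant genes, and what part of their reads came from joined transcripts was not tested. The 3 J segments below each lie just upstream of the constant region with the same number, and capitals mark bases not shared by all 3.
Iglj1: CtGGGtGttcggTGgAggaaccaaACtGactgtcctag
Iglj2: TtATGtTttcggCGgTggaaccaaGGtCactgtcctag
Iglj3: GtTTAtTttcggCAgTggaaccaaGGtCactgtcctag
They lie on the minus strand at chr16:19063225-19063262 (Iglj1), chr16:19200198-19200235 (Iglj2) and chr16:19067041-19067078 (Iglj3), and each is shorter than a read. Iglj2 and Iglj3 match at 34 of 38 bases. Of 11 such rows 8 were tested, and 4 rose and none fell by edgeR's quasi-likelihood test. Among the 8, Iglj3 and Iglj3p entered the test through the p52Ki libraries, where they were higher. Among all genes tested 4.49% rose and 4.04% fell. At an unadjusted p under 0.05, 6 were higher and 0 lower, and DESeq2 called 5 higher and 0 lower.

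The kappa J segments were all higher on average in p52Ki. Igkj3 averaged 16.5 ± 3.7 CPM in p52Ki and 4.14 ± 0.41 CPM in WT (log2 fold change 1.99, adjusted p = 0.0155 by edgeR). Igkj4 averaged 23.4 ± 4.7 CPM in p52Ki and 5.96 ± 1.16 CPM in WT (1.97, adjusted p = 0.00842 by edgeR). Igkj5 averaged 26.9 ± 3.3 CPM in p52Ki and 8.41 ± 2.32 CPM in WT (1.68, adjusted p = 0.0124 by edgeR). These 3 segments rose, as did Igkc. Igkj2 (log2 fold change 1.65, adjusted p = 0.0815 by edgeR) and Igkj1 (1.13, adjusted p = 0.324 by edgeR) did not pass. Kappa J counts were 1.29% ± 0.31 of Igkc counts in p52Ki and 1.12% ± 0.13 in WT (SD, n = 5 and 4).

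Among lambda J rows, Iglj1, which joins to Iglc1, averaged 30.3 ± 8.3 CPM in p52Ki and 32.6 ± 11.6 CPM in WT (SD, n = 5 and 4; log2 fold change -0.11, adjusted p = 0.905 by edgeR). It made up 55.1% ± 8.7 of lambda J counts in p52Ki and 86.8% ± 4.8 in WT, a total that includes the pseudogene Iglj3p and no Iglj2 counts. Summed over libraries, Iglj1 held 885 counts in p52Ki and 953 in WT, and Iglj3 held 233 and 72. Iglj3p held 494 and 64, the largest difference of these rows, and the share without it was not tested. Iglj3, which joins to Iglc3, averaged 7.94 ± 2.16 CPM in p52Ki and 2.46 ± 1.32 CPM in WT (log2 fold change 1.68, adjusted p = 0.161 by edgeR). Iglj3p, a J pseudogene of the same cluster, stood at 23.2, 15.5, 12.1, 10.4 and 22.4 CPM in p52Ki libraries, against 0.919, 2.08, 3.27 and 2.52 CPM in WT libraries. It rose 7.57-fold (log2 fold change 2.92 ± 0.55, SE; adjusted p = 0.00929 by edgeR), and the groups did not overlap. Too few WT libraries held enough Iglj3p counts for the filter (7 in WT replicate 1), so it entered the test through the p52Ki libraries. The same held for Iglj3 (6 in WT replicate 4). Iglj3 and Iglj3p counts together were 3.29% ± 0.65 of Iglc3 counts in p52Ki libraries and 1.33% ± 0.43 in WT libraries. Iglj1 counts were also a higher percent of Iglc1 counts on average in p52Ki, at 1.47% ± 0.35 against 0.99% ± 0.15 in WT. Iglc4, a constant region pseudogene too sparse for the test of all 9 libraries, had 12, 17, 4, 2 and 27 counts in p52Ki libraries and 0 in every WT library. Summed over libraries, it was at least 21.6-fold higher in p52Ki against a floor of 3 counts over the summed WT libraries. That bound leaves out the spread between libraries, and p52Ki replicate 5 gave the largest part. In the 4 fits with 1 library left out that could test Iglc4, it was not called (adjusted p 0.0745 to 0.0818 by edgeR). Iglj4 had 5 counts in all, each from p52Ki replicate 5, and none in WT.

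**Figure D5:**
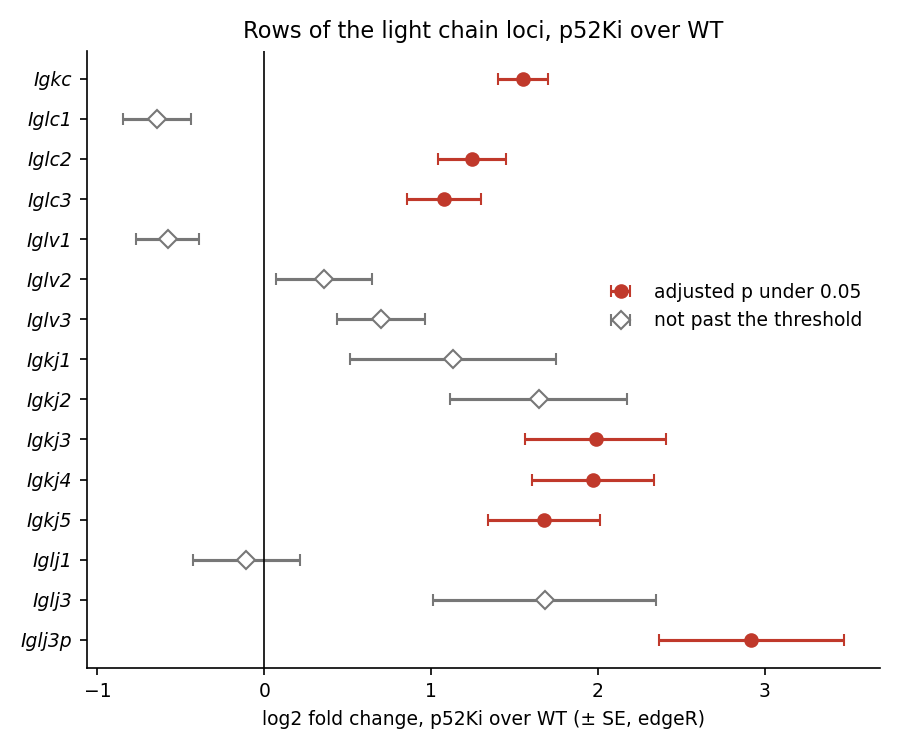
Log2 fold change of p52Ki over WT (points, with SE bars) for the 7 light chain genes and the 8 other tested rows of the kappa and lambda loci. Igkc, Iglc2, Iglc3, Igkj3, Igkj4, Igkj5 and Iglj3p passed the test, all above 0.

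Light chain transcripts were then set against heavy chain ones. Summed light constant counts were 0.583, 0.615, 0.538, 0.483 and 0.647 of summed heavy constant counts in p52Ki libraries, against 0.357, 0.425, 0.530 and 0.532 in WT libraries. The groups overlapped, and the log2 difference of 0.33 did not pass (exact two-sided permutation p = 0.0635, adjusted 0.0741). Without p52Ki replicate 4 it was 0.39 with adjusted p = 0.0333 by the same exact permutation test. The difference did not pass when any other single library was left out (adjusted p up to 0.167 by that test). With only Ighm and Ighd as heavy chains the log2 difference was -0.04 (exact permutation test, adjusted p = 0.738). Ighg1, the constant region of class-switched IgG1, made up 0.433% to 5.30% of heavy constant counts in p52Ki libraries and 18.1% to 25.7% in WT libraries. The part of switched cells in the light chain differences was not tested.

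The partners with which light chains form receptors and antibodies shifted in both directions. Of 11 partner genes 3 rose and 2 fell in p52Ki (45.45% called, against 8.53% of all genes tested). Ighm, the IgM heavy chain, averaged 16730 ± 2172 CPM in p52Ki and 9666 ± 705 CPM in WT (log2 fold change 0.79, adjusted p = 0.00263 by edgeR). Ighd, the IgD heavy chain of naive cells, averaged 273 ± 49.5 CPM in p52Ki and 98.8 ± 29.6 CPM in WT (1.47, adjusted p = 0.00462 by edgeR). Cd79a, the signalling partner of the receptor, averaged 2829 ± 419 CPM in p52Ki and 1569 ± 315 CPM in WT (0.85, adjusted p = 0.00906 by edgeR). Ighg1 fell, at 351 ± 325 CPM in p52Ki and 3194 ± 422 CPM in WT (-3.18, adjusted p = 0.0061 by edgeR). Jchain, which joins IgM into polymers, also fell, at 562 ± 202 CPM in p52Ki and 1252 ± 194 CPM in WT (-1.16, adjusted p = 0.0116 by edgeR).

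The surrogate light chain genes stand in for a light chain in precursor B cells. Of 4, 2 could be tested, and none changed by edgeR's quasi-likelihood test, while 1 was higher at an unadjusted p under 0.05 and by DESeq2. Vpreb3, which is also made in mature B cells, averaged 215 ± 134 CPM in p52Ki and 96.4 ± 28.3 CPM in WT (log2 fold change 1.16, adjusted p = 0.0937 by edgeR). Of 13 tested genes of V(D)J recombination and end joining, 2 rose and 2 fell by edgeR (30.77% called, against 8.53% of all genes tested). DESeq2 called 3 higher and 2 lower. Polm, a polymerase that acts at light chain joins, averaged 121 ± 35.1 CPM in p52Ki and 52.3 ± 9.4 CPM in WT (1.21, adjusted p = 0.011 by edgeR). Hmgb2 and Hmgb1, DNA-bending cofactors of the recombinase, fell. Hmgb2 averaged 733 ± 260 CPM in p52Ki and 1562 ± 285 CPM in WT (-1.09, adjusted p = 0.0164 by edgeR), and 0.0507 without WT replicate 4. Hmgb1 averaged 989 ± 187 CPM in p52Ki and 1500 ± 99.2 CPM in WT (-0.60, adjusted p = 0.0216 by edgeR), and up to 0.0648 when WT replicate 1, 3 or 4 or p52Ki replicate 1 or 3 was left out. Rag2, a recombinase subunit, had 60, 31, 66, 0 and 37 counts in p52Ki libraries and 0 in every WT library, at least 67.7-fold higher in p52Ki against the floor of 3 counts over the summed WT libraries. Its call (adjusted p = 0.0291 by edgeR) was lost when any one WT library was left out (up to 0.0569). It was too sparse to test without p52Ki replicate 1, 2, 3 or 5, and B230118H07Rik overlaps it on the opposite strand.

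Of 28 tested factors known to bind light chain enhancers and promoters, 4 rose and 2 fell by edgeR. That is 21.43% called, against 8.53% of all genes tested. At an unadjusted p under 0.05, 10 were higher and 4 lower, DESeq2 called 7 higher and 2 lower, and with one library left out edgeR called 2 to 4 higher and 1 to 2 lower. The list's median log2 fold change was 0.13. Irf4, which binds the kappa 3' and lambda enhancers with PU.1 or Spi-B, averaged 149 ± 42.5 CPM in p52Ki and 34.6 ± 8.4 CPM in WT (2.11, adjusted p = 0.00172 by edgeR). Rel, the c-Rel NF-kB subunit, averaged 316 ± 83.8 CPM in p52Ki and 153 ± 28.5 CPM in WT (1.04, adjusted p = 0.0154 by edgeR). Spib rose (0.64, adjusted p = 0.023 by edgeR), a call lost on removal of WT replicate 3 or 4, or of p52Ki replicate 1 or 3 (up to 0.06). Pou2f2, the octamer factor Oct-2, rose (0.67, adjusted p = 0.0345 by edgeR), a call kept only when p52Ki replicate 2 was the library left out (otherwise up to 0.0866). Stat5a fell, averaging 29.4 ± 7.4 CPM in p52Ki and 65.2 ± 7.1 CPM in WT (-1.15, adjusted p = 0.0148 by edgeR). Pou2af1, the octamer coactivator, fell (-0.68, adjusted p = 0.0255 by edgeR), a call lost on removal of WT replicate 1 or 4, or of p52Ki replicate 1 or 3 (up to 0.0881).

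Genes of antibody secretion, which go with high immunoglobulin output, were called in both directions. Of 13 tested, 3 rose and 1 fell by edgeR (30.77% called, against 8.53% of all genes tested). DESeq2 called 3 higher and 1 lower. Pdia4, an endoplasmic reticulum foldase, averaged 339 ± 78.9 CPM in p52Ki and 158 ± 25.9 CPM in WT (1.10, adjusted p = 0.0068 by edgeR). Sec11c, a signal peptidase subunit, averaged 271 ± 32.6 CPM in p52Ki and 147 ± 29.6 CPM in WT (0.88, adjusted p = 0.0096 by edgeR). Slamf7, a surface receptor of plasma cells, fell (-0.87, adjusted p = 0.0243 by edgeR), a call lost on removal of WT replicate 3 or 4, or of p52Ki replicate 3 or 5 (up to 0.0775). Fkbp11, an endoplasmic reticulum prolyl isomerase and the last of the 3 called higher, had 117 counts in all p52Ki libraries and 4 in all WT libraries. It therefore entered the test through p52Ki libraries alone. Its call (adjusted p = 0.034 by edgeR) was lost on removal of any one WT library (up to 0.0854). With 1 library left out it had counts enough for 5 fits and was called in 1.

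Marker lists of other cells were read beside these differences. Among all genes tested, edgeR called 8.53% in either direction, 4.49% higher and 4.04% lower. The 7 plasma cell markers summed to 474 to 677 CPM in p52Ki libraries and 667 to 724 CPM in WT libraries. Of these, 1 of 6 tested fell (Slamf7), the call described above as lost with some single libraries left out. Markers of precursor B cells, which rearrange light chains, summed to 7.81 to 25.3 CPM in p52Ki libraries and 0.531 to 5.53 CPM in WT libraries, and 1 of 3 tested was called, Rag2. Rag2 had 0 counts in every WT library, so it entered the test through p52Ki libraries alone, and its call was lost on removal of any one WT library. Of these, Dntt was at 0 in every library. Macrophage markers summed to 86.2 to 181 CPM in p52Ki libraries and 38.9 to 130 CPM in WT libraries, and stromal ones to 112 to 265 CPM in p52Ki libraries and 39.2 to 105 CPM in WT libraries, with Col1a1 and Col1a2 at 0. None of the 6 macrophage markers passed edgeR's test (1 was higher at an unadjusted p under 0.05 and by DESeq2). The 1 stromal marker tested, Pecam1, rose, a call lost on removal of WT replicate 2 or 3, or of p52Ki replicate 1, 3 or 5 (adjusted p up to 0.066 by edgeR). Pecam1 alone averaged 183 ± 54.6 CPM in p52Ki and 71.4 ± 33.2 CPM in WT, so the stromal sum largely repeats this 1 gene. Dendritic cell markers summed to 10.4 to 37.1 CPM in p52Ki libraries and 45.1 to 67.7 CPM in WT libraries. The 1 tested, Flt3, fell, a call lost on removal of WT replicate 2, 3 or 4, or of p52Ki replicate 3 or 5 (adjusted p up to 0.0715 by edgeR). Flt3 alone averaged 21.6 ± 9.6 CPM in p52Ki and 58.5 ± 10.3 CPM in WT, so this sum too largely repeats 1 gene. T cell, neutrophil, erythroid, NK cell and platelet markers each summed to at most 17.9 CPM in any library. The part of other cell types in the light chain differences was not tested.

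Among 9002 genes that are not immunoglobulin genes and whose mean log2 CPM was at least 3, those whose log2 CPM followed Igkc most closely over the 9 libraries were Selplg (Pearson r = 0.99), Ccnd2 (0.99), Mast4 (0.98), Cd274 (0.98) and Ccr7 (0.98). Each of the 5 was higher in p52Ki: Ccr7, a chemokine receptor that draws cells to the T cell zone, averaged 531 ± 102 CPM in p52Ki and 70.04 ± 18.7 CPM in WT. The genes nearest to the summed lambda constant genes were Use1 (0.92), Hexdc (0.92), Eef1d (0.91), Zswim1 (0.90) and Parn (0.89), none of which changed between the groups by edgeR (adjusted p from 0.851 to 0.993). These values describe libraries that share group and depth, so they carry no test.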

How the data were processed

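Per the labels' protocols, RNA from B cells was made into SMART-Seq v2 libraries, which do not mark strand or molecules, and sequenced in paired 151-cycle reads. The tools named in the submitters' processing notes are HISAT2 2.1.0, SAMtools 1.8 and, from Subread 1.6.2, featureCounts, with the GRCm38 build. How reads matching several genes were handled, and which strand setting and annotation release were used, is not given in the sources used here. In one file the authors deposited whole-number counts for 55536 genes. In another they deposited log2 CPM values of 12849 genes, which equal edgeR's log2 CPM with a prior count of 2 and entered one limma alternative. All 55536 gene IDs were found in the GENCODE M21 annotation of GRCm38, which gave positions, exon lengths and sequences.

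The counts were fitted with edgeR 4.0.16 in R 4.3.3 (TMM, filterByExpr, robust quasi-likelihood F test, no covariate), with Benjamini-Hochberg adjustment over 12849 genes and a threshold of 0.05. CPM divides a count by the library's total times its TMM factor. The 7 ratios and shares per library were tested by exact two-sided permutation. limma 3.58.1, DESeq2 1.42.0, other filters and scalings, single libraries left out and a fit blocked by replicate number were tried as alternatives. PCR reads without molecular identifiers are not independent molecules, so floors cover counting error only. The members and lists were chosen with earlier results of these data known. Named genes were all members, the J rows and Iglc4, up to 4 genes of smallest p per list, and the 5 genes most like Igkc and the summed lambda constant genes. Further called genes of a list (Jchain, Pou2f2 and Pou2af1) were added after their values were seen.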

Additional observations from a re-analysis of the deposited data

Results flagged for a closer look

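In 22 quantities with 44 groups of libraries examined, 2 libraries stood further from their group than Dixon's 95% critical value allows, where chance gives about 1 in 20 groups. Iglc3 stood at 499.4 CPM in WT replicate 2, above the other WT libraries, which lay between 288 and 324 CPM. The ratio of lambda V to lambda constant counts was 0.5345 in p52Ki replicate 5, below the other p52Ki libraries, which lay between 0.655 and 0.695.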

How the results depend on the processing

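Igkc passed the threshold under all 18 alternatives (log2 fold change 1.45 to 1.65) and Iglc3 under all 17 of its own. Over all genes, edgeR called 1096; DESeq2 called 1766, and leaving out one library gave 625 to 1108 (for the WT group, 714 on removing replicate 1 and 711 on removing replicate 4; for p52Ki, 651 on removing replicate 1, 625 replicate 3 and 716 replicate 5). Of the 7 genes, edgeR called 3, DESeq2 6, and leaving out one library gave 3 to 4. DESeq2 added Iglc1 (-0.61, adjusted p = 0.0267), Iglv1 (-0.55, 0.0372) and Iglv3 (0.73, 0.0478), and limma with quality weights added Iglc1 (-0.66, 0.04998). With one library left out, the log2 kappa to lambda difference ran from 1.54 to 1.63 and that of light to heavy from 0.21 to 0.40. Lambda from Iglc2 and Iglc3 alone gave 0.4011, and heavy chains from Ighm and Ighd alone gave a light to heavy difference of -0.04343; the cause was not tested.

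The labels give replicate numbers to both groups and do not say what the numbers mark. Same-numbered libraries did not deviate together from their group means (correlations -0.042 to -0.009). These correlations cannot settle whether same-numbered libraries share a litter or a day, so pairing remains unknown. With the replicate number as a block, 129 genes were called and Iglc2 had adjusted p = 0.0632 by edgeR. The paired differences were 1.62 for kappa to lambda, -31.08 for the lambda V share, -23.64 for the Iglc1 share, 3.669 for the Iglv3 share and -0.2515 for lambda V to constant. Over 4 pairs the exact sign-flip permutation test cannot go below p = 0.125 (adjusted 0.175).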

Other observations

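One heavy chain V segment was looked at beside the lambda genes after its values had been seen. Ighv1-72 stood at 75.8, 209, 159, 242 and 82.8 CPM in p52Ki libraries, against 670, 609, 674 and 644 CPM in WT libraries. It averaged 154 ± 74.0 CPM in p52Ki and 649 ± 30.1 CPM in WT (SD, n = 5 and 4; log2 fold change -2.08, adjusted p = 0.00351 by edgeR), and the call held with each of the 9 libraries left out in turn.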
